A study of Mus musculus with 8 samples.

Results

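Intergenic long non-coding RNA (lncRNA) genes are described here by the chromatin state of their ends in mouse CD8-positive dendritic cells. The members are the RefSeq lncRNA genes of GRCm38.p6 (the assembly of mm10) whose ends all lie more than 5 kb from any protein-coding gene. The rule kept 6530 of 12727 lncRNA genes on the autosomes, X and Y, which gave 13060 end windows reaching 1 kb to either side of an end. It used annotation only and no measured value. Of the members, 44 have a coding gene inside their own span.

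The series holds 8 samples of CD8-positive dendritic cells, grown in IMDM-glutamax medium with fetal calf serum, penicillin, streptomycin and β-mercaptoethanol. The values below come from the 2 ATAC-seq samples of unstimulated cells, labelled replicates 1 and 2. The other 6 samples are ChIP-seq for IRF3 after poly(I:C), IRF5 after CpG oligonucleotide and IRF9 after interferon-beta, 90 min each, and they were not analysed here. One label field gives spleen as the source of the cells and another names a cell line, and neither a genotype nor an animal's age was used here. The labels do not tell if the replicates were separate cultures, so their differences may be technical. In a bulk library a peak may come from all the cells or from a share of them.

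A lncRNA gene makes a transcript that is processed like a messenger RNA but has no long open reading frame. Some lncRNAs act on neighbouring genes, some act elsewhere in the nucleus or the cytoplasm, and at some loci it is the DNA element or the act of transcription that matters. Intergenic lncRNAs often start at enhancers or at promoters poor in CpG, and in myeloid cells such elements are commonly opened by PU.1, C/EBP, AP-1 and IRF factors. ATAC-seq finds accessible DNA with a transposase that cuts and tags it. CD8-positive dendritic cells, a class called cDC1, present captured antigen to CD8 T cells and depend on the factors IRF8, BATF3 and ID2.

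Replicate 1 had 50950 peak regions over 8.71 Mb and replicate 2 had 58319 over 11.2 Mb. Peaks of the 2 lists that overlap by at least 1 bp were merged into shared regions, of which there were 44362. No region's highest-scoring summit had fewer than 7 reads (replicate 1) or 9 reads (replicate 2). Weaker summits of the same regions were not examined. An end without a peak was thus not detectable at this depth, which does not make it closed. A shared region was found at an end of 7 of 12 dendritic cell genes, among them Flt3, Itgax, Irf8 and Xcr1, where 47.3% of all coding genes had one. In or within 1 kb of the gene, 11 of the 12 had one. The share of all coding genes by that wider count is not given here, so the wider count does not speak to cell identity. Batf3, Itgae, Zbtb46 and Clec9a had no shared region at an end and had theirs only by the wider count. Cd8a, which gives the cells their name, had no shared region by either count. The 7 of 12 was not tested against the share of all coding genes. Among 12 genes of other cells, 6 had a region in or within 1 kb of the gene and 4 had an end region: Csf1r of macrophages, Siglech of plasmacytoid dendritic cells, Hbb-bs of red cells and Cd3d of T cells, at folds between 4.39 and 9.14, and their part in the results below was not tested.

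Promoters of 7 members are printed first to show motif letters at accessible starts near immune genes. Each overlaps a shared region, has an immune gene within 100 kb and was chosen because it carries letters of a factor known in myeloid cells. Of the 28 members near immune genes with a printable promoter that a shared region overlaps, 11 carry none of the patterns searched, Gm41603, Gm4258 and Gm32249 among them. The sequences are RefSeq's, from 250 bases before to 50 bases after the start, 5′ to 3′ on the gene's strand. Capitals mark any match, on either strand, to 7 patterns: the interferon-stimulated response element (ISRE) GAAANNGAA, the ETS-IRF composite GGAANNGAA, the PU.1-like ETS core GAGGAAGT, AP-1 TGANTCA, Runx TGTGGT, the E-box CACGTG and TATA-like TATAAA. N is any base, and matches to the first 3 patterns can overlap each other. Ptgs2os2 is at chr1:150164899-150165198 (minus strand) and holds an ISRE match. Gm31619, near Cebpb, is at chr2:167589434-167589733 (minus) and holds a PU.1-like match. Gm52717, near Bach2, is at chr4:32160854-32161153 (minus) with a PU.1-like match and Runx matches. The next pair lies near Dusp5. 4833407H14Rik at chr19:53460372-53460671 (plus) has an ISRE and a PU.1-like match, and Mirt1 at chr19:53464747-53465046 (minus) has a PU.1-like, an AP-1 and a Runx match. A930006K02Rik, near Ifnar1, is at chr16:91464854-91465153 (plus) with an ISRE match. Gm12216, near Irf1, is at chr11:53859207-53859506 (minus) with an ISRE and an AP-1 match. Its shared region covers 135 of the 300 bases and leaves out the AP-1 match.
Ptgs2os2: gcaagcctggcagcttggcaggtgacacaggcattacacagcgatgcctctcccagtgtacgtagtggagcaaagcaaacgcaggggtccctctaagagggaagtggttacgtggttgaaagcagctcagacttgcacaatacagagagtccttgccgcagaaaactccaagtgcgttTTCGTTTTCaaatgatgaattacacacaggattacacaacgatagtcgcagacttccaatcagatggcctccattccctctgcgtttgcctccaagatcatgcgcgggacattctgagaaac
Gm31619: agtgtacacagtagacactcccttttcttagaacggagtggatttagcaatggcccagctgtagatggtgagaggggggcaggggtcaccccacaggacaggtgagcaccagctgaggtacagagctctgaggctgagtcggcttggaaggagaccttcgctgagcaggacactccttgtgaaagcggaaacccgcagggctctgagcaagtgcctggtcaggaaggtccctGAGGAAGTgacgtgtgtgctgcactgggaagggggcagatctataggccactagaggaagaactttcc
Gm52717: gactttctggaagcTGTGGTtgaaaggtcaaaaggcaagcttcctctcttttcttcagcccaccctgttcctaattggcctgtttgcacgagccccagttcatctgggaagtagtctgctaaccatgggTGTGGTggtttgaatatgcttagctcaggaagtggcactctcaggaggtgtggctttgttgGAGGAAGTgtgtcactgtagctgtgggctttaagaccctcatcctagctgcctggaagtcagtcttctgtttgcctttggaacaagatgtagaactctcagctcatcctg
4833407H14Rik: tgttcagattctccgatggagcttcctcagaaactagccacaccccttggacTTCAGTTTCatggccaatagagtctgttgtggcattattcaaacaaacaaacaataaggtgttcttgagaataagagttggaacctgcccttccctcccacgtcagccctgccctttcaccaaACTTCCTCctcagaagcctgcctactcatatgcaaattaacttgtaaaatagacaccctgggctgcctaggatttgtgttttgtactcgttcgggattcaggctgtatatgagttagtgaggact
Mirt1: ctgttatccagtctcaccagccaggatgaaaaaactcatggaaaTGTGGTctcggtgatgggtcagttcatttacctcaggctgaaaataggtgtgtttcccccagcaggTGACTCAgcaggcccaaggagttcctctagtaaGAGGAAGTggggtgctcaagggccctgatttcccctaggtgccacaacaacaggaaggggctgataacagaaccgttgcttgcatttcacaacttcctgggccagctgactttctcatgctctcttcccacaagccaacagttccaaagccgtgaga
A930006K02Rik: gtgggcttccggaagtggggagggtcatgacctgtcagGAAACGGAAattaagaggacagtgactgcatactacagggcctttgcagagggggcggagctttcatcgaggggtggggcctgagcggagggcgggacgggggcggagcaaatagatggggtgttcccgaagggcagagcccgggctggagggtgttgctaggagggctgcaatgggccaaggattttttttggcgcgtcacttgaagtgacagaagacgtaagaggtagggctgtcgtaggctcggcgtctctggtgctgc
Gm12216: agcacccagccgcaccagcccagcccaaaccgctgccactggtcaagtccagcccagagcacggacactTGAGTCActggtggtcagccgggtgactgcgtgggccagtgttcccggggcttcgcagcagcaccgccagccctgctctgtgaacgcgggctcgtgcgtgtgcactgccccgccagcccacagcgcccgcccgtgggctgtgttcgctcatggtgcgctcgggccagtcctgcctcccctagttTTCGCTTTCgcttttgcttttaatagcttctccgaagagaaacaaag

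Few intergenic lncRNA genes had accessible ends. Of 6530 members, 640 had a shared region in an end window, which is 9.8% (exact Clopper-Pearson 95% interval 9.09 to 10.5). All intervals of shares given here are of this kind and cover counting error only. Among the 6197 lncRNA genes outside the rule the share was 28%, and among 21883 coding genes it was 47.3%. Counted per window, 5.38% of the members' end windows held a shared region, against 1.39% of 722070 tiles of 2001 bp that lay more than 5 kb from coding genes and off every lncRNA end. The intervals were 5 to 5.78 for the windows and 1.36 to 1.42 for the tiles. The tiles were not matched to the windows in distance from coding genes. More than 200 kb away lay 271610 of the tiles, and 2496 of the 13060 windows. In bins of like distance the ratio of windows to tiles was between 2.52 and 3.54. Neighbouring genes and tiles are not independent, so no test was made. Assembly gaps and unmappable sequence, where no peak can be called, were not removed from the tiles. Such tiles can only lower the tile share, and by how much was not tested. In the better-scoring 50% of each list the members' share was 5.38% and that of coding genes 34.4%.

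The replicates mostly reported the same members. A peak in replicate 1 alone lay at the ends of 58 members and a peak in replicate 2 alone at those of 120, while 2 members had peaks in both lists that did not overlap. In 5710 members (87.4%) neither list had a peak at an end. Of the 640 members, 506 had 1 shared region, 111 had 2 and 23 had 3 or more, and 63 members had a shared region at each end. In members of up to 2 kb the end windows overlap, so 1 region can count for both ends. Together they held 771 distinct regions, 31 of which served the ends of more than 1 member.

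Starts were accessible more often than 3′ ends. The strand is known for 4946 members through RefSeq promoters of the same gene. Among these, 357 starts (7.22%, 6.51 to 7.97) and 199 3′ ends (4.02%, 3.49 to 4.61) had a shared region, and 53 members had both. Of the starts, 4% had a region when only the better-scoring 50% of each list was used. In the other lncRNA genes the shares were 25.8% of starts and 8.76% of 3′ ends, and in coding genes 45.7% and 6.94%. The members' 3′ ends thus differed less from those of coding genes than their starts did, although the difference between these gaps was not tested. None of the 243 members on chromosome 18 has a strand in the table used here.

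**Figure D1:**
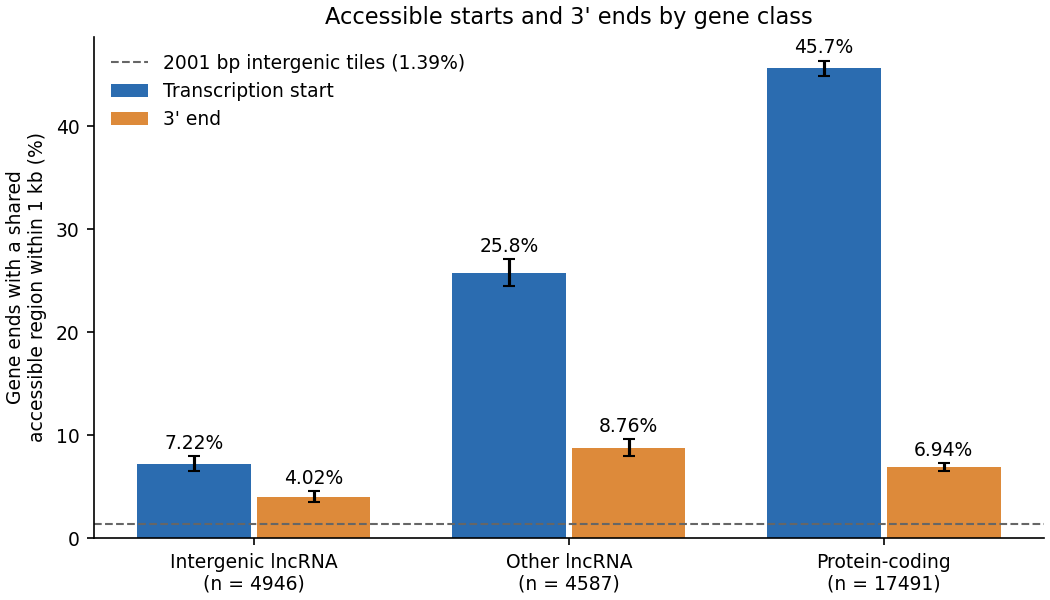
Bars give the share (%) of starts and 3′ ends with a shared accessible region within 1 kb for intergenic lncRNA, other lncRNA and coding genes, with exact 95% intervals, and the dashed line gives the 1.39% of intergenic tiles. The tiles were not matched to the gene ends in distance from coding genes. The members' starts, at 7.22%, stand above their 3′ ends, at 4.02%, and both are far below the 45.7% of coding starts.

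The regions sat close to the annotated start. Of the 357 starts, the nearest region's centre was upstream in 189 and inside the gene in 168, with a median offset of -10 bp. The centre lay within 250 bp of the start in 186 members and within 500 bp in 248. In bins of 500 bp, 4.08% of 4946 members had a region in the last bin before the start and 4.44% of the 4927 long enough for it in the first bin after it. Around the 3′ end the corresponding bins held 1.52% and 1.01%, and no bin stood out. These RefSeq starts are annotated positions, many from predicted models, and were not measured in these cells.

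**Figure D2:**
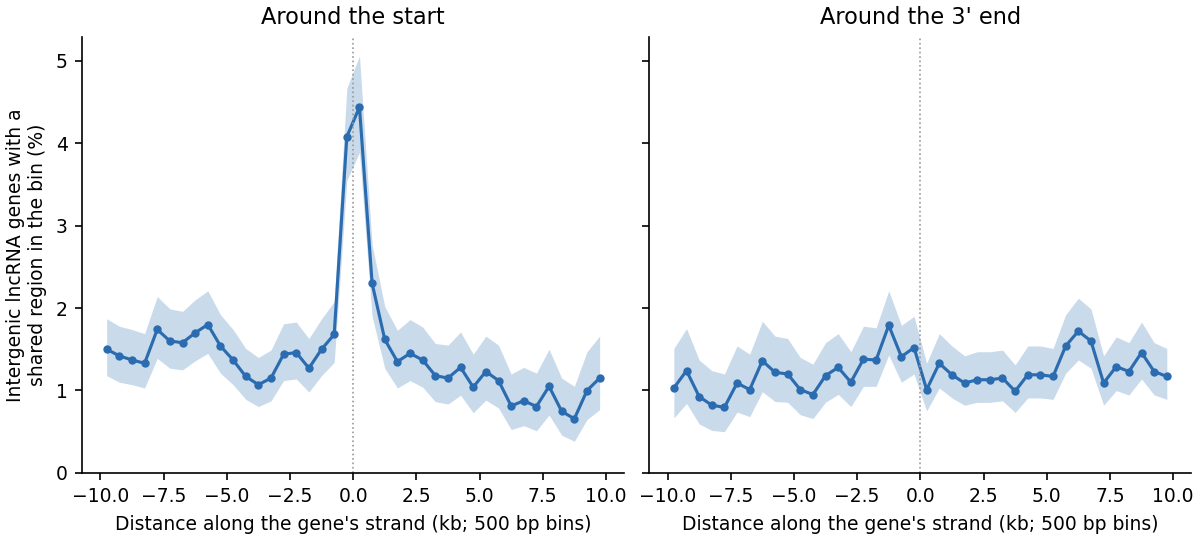
The y axis gives the share (%) of intergenic lncRNA genes with a shared region in each 500 bp bin (4946 genes outside the gene, and only genes long enough for the bin inside it), against the distance (kb) along the gene's strand from the start (left) and the 3′ end (right), with exact 95% intervals as bands. A narrow peak of 4.08% and 4.44% flanks the start, and the 3′ end has none.

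Accessibility of members fell with distance from coding genes, and so did that of the intergenic space around them. Windows 6 to 10 kb from the nearest coding gene held a shared region in 9.94% of cases, and tiles at that distance in 3.71%. Windows more than 200 kb away did so in 1.48%, and tiles in 0.419%. The ratio of windows to tiles, with assembly gaps left in the tiles, was between 2.52 and 3.54 in all 6 distance bins. At the border of the rule, the share was 17% among the 765 members with a gap of 5 to 10 kb and 17.3% among the 618 lncRNA genes left out with a gap of 2 to 5 kb.

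**Figure D3:**
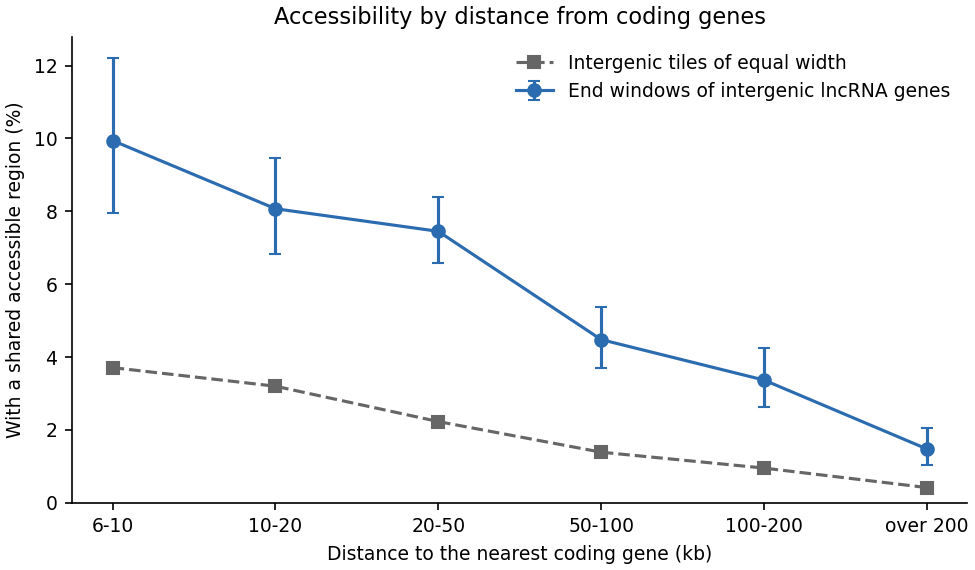
Points give the share (%) of lncRNA end windows and lines with squares that of equally wide intergenic tiles with a shared region, against the distance (kb) to the nearest coding gene, with exact 95% intervals for the windows. Both decline from the nearest bin (9.94% and 3.71%) to the farthest (1.48% and 0.419%), with the windows higher in each bin.

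Annotation classes differed. Members with a curated RefSeq transcript had accessible ends in 192 of 1526 cases (12.6%, 11 to 14.4), and those with predicted transcripts only in 448 of 5004 (8.95%, 8.18 to 9.78). Members carrying a name of their own, not a Gm, Rik or LOC symbol, reached 17.7% (29 of 164). By chromosome the share ran from 4.35% on chromosome 14 to 15.4% on chromosome 19, and it was 5.62% on X. Members spanning more than 50 kb had accessible ends in 7.08% and those of up to 2 kb in 10.8%.

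Where the members' ends were accessible, their median fold was close to that of other shared sites. All of these sites had already passed the caller's threshold. The fold enrichment is the authors' value at a peak's summit over the local background of the same library. The median over the 771 regions was 7.29 in replicate 1 (range 2.01 to 17.2) and 7.6 in replicate 2 (1.94 to 16). Over all shared regions it was 7.22 and 7.59, and over those at coding ends 7.23 and 7.46. The median region was 199 bp wide and its summit held 17 and 25 reads. Regions at coding ends were wider, at 245 bp, and had several summits in 31.8% of cases in replicate 1, against 19.8% at the members' ends. Their summits held more reads, at medians of 20 and 29. Their scores ranked higher too, at median percentiles of 62 and 66.2, against 55.4 and 59.3 at the members' ends. Across the 771 regions the folds of the replicates were correlated (Spearman's rho 0.72, Pearson's r 0.74), as a description over regions that share the same 2 libraries. A fold above 10 in both replicates was reached by 77 regions, and 38 were below 5 in both.

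The 10 members with the highest folds carry Gm symbols, but for BC002059. Gm17767 (chr1:51509505-51596718), nearest to Nabp1, which codes for a single-stranded DNA binding protein, had folds of 17.2 and 15.7 at its 3′ end. Gm26510 and Gm52315 near Tgif1 share the region at the start of the former, with folds of 13.9 and 15.4. Gm33875, Gm32276, Gm46168, Gm5547 and BC002059 had folds between 12.9 and 16 in each replicate. All 10 had folds above 12 in both libraries, and only Gm52359 among them had an immune gene within 100 kb.

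The loci near immune genes were taken from 9 lists. Of the 6530 members, 312 had a gene of the lists within 100 kb, measured between gene bodies, and 74 of these had a shared end region (23.7%, 19.1 to 28.8). They held 87 regions. Each member was counted at its nearest immune gene only, which gave 64 such genes. Another coding gene can lie nearer. Gm15889 lies 6112 bp from Herpud1, LOC115487230 5816 bp from Eef1a1 and Gm39301 5713 bp from Cdc37. No region was shown to act on the immune gene named beside it. Members with other coding genes only within 100 kb had accessible ends in 476 of 4081 cases (11.7%, 10.7 to 12.7), and those with no coding gene in reach in 90 of 2137 (4.21%). The order was the same at each gap to the nearest coding gene: at 5 to 20 kb the shares were 23.4% near immune genes and 14% near others, at 20 to 50 kb 22.3% and 13%, and at 50 to 100 kb 27.1% and 6.56%. These differences were not tested. The gene lists were chosen with earlier results of these data known, so the shares are descriptions only. The fold was not higher near immune genes, with medians of 6.97 and 7.23 there against 7.26 and 7.56 near other coding genes. Of the 74 members, 42 had the region at a start and 19 at a 3′ end only, and 13 have no strand. Members near each other share an immune gene or even a region, so these shares rest on fewer independent loci than members. The number of 74 was 36 in the better-scoring 50% of each list, 45 for immune genes within 50 kb and 112 within 200 kb. With windows of 500 bp in place of 1 kb, Gm36301, Gm14009, Gm15889, Gm39650, Gm40477, Gm51814, Gm31640, Gm33199, Gm36287, Gm39301 and 0610043K17Rik, described below, no longer had a region at an end. LOC108169147, LOC115487230, A230051N06Rik, E130102H24Rik and Gm32348 lost theirs where peaks had to overlap by 50% of each.

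Lists differed in their shares, with wide intervals. Each member was put only in the list of its nearest immune gene, so a list can miss members within 100 kb of its genes. Members near genes of NF-kB and MAP kinase control, which set the strength and end of inflammatory signalling, had accessible ends in 17 of 39 cases (43.6%, 27.8 to 60.4). The share was 6 of 19 near interferon signalling genes and IRF factors, 28 of 111 (25.2%) near dendritic and myeloid identity genes, 5 of 22 near chemokines and their receptors, and 4 of 18 near nucleic acid sensors and Toll-like receptors. It was 3 of 18 near antigen presentation genes, 6 of 36 near lymphocyte genes and 5 of 41 (12.2%, 4.08 to 26.2) near cytokines and their receptors. None of the 8 members whose nearest immune gene was on the interferon-stimulated list had one, where the interval still reaches 36.9%. The lists were compared by counts only.

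**Figure D4:**
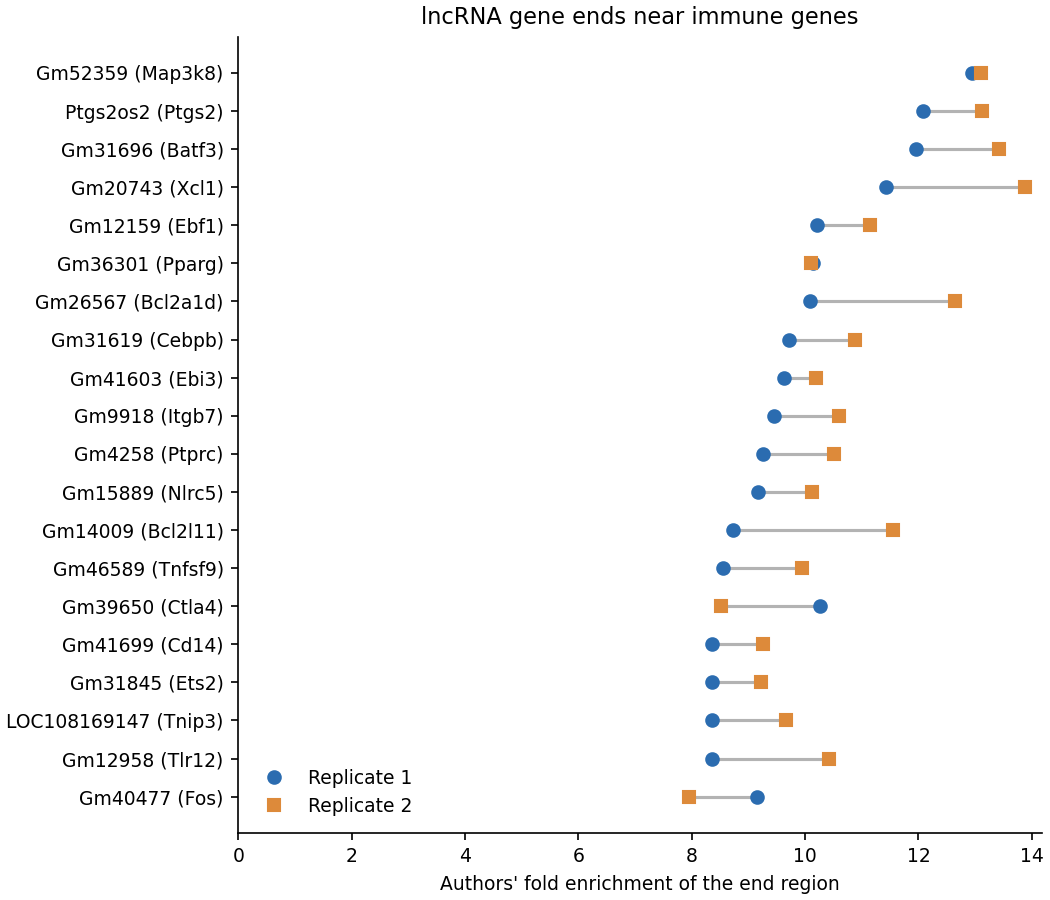
The x axis gives the authors' fold enrichment of the end region in replicate 1 (circles) and replicate 2 (squares) for the 20 members with the highest lower fold near an immune gene, which is named in brackets. Folds run from 7.95 to 13.9, and 17 of the 20 members were higher in replicate 2.

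Among members near signalling genes, Gm52359 ranked highest. Its low-coordinate end lies 90560 bp from Map3k8, the kinase TPL2 of the Toll-like receptor to ERK pathway, and had folds of 12.9 and 13.1 with 24 and 34 reads. Gm40477, 36490 bp from Fos, had 9.15 and 7.95, and Gm32348, on the other side of the same gene, had 4.71 and 5.25. Fos codes for an AP-1 subunit and had 2 of 5 neighbouring members accessible. LOC108169147, 12975 bp from Tnip3, an A20-binding inhibitor of NF-kB, had 8.35 and 9.66. Gm51814, 53051 bp from Tnfaip3, which codes for A20 itself, had 7.76 and 7.90. Gm39612 lies 34904 bp from Rel, an NF-kB subunit, with 6.81 and 7.02, and 2310034G01Rik near Nfkb2 had 6.62 and 6.75.

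Phosphatases of the MAP kinases are part of the same list. Dusp5 had 2 of 3 neighbouring members accessible, Dusp1 and Dusp2 had 1 of 1 each, and Dusp6 had 0 of 2. These counts are small, and the list as a whole had 17 of 39. The start regions of Mirt1 and 4833407H14Rik are distinct and lie 64081 and 68520 bp from Dusp5, a phosphatase of nuclear ERK. The nearest coding gene of Mirt1 is Smndc1. Mirt1 had folds of 5.54 and 7.37, and 4833407H14Rik had 7.71 and 7.08. Gm34606 near Dusp1 had 3 shared regions at its ends, the best at 4.99 and 5.40, and Gm39923 near Dusp2 had 7.76 and 4.39. D730003I15Rik, 41529 bp from Atf3, a stress-induced repressor, had its best region at 6.62 and 11.5, a wide gap between the replicates.

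Few members lay near each gene that defines this dendritic cell, too few to set the genes apart. Of all 312 members near immune genes, 23.7% had an accessible end. Batf3, a factor required for CD8-positive dendritic cells, was the nearest listed gene of 3 members, and all 3 were accessible. They lie between Batf3 and Atf3, and Atf3 too is within 100 kb of each. Gm31696 had folds of 11.95 and 13.42 at its 3′ end (chr1:191138401-191138679), 29458 bp from Batf3, Gm46178 had 6.96 and 7.88 at its start, 11991 bp away, and Gm31640 had 5.60 and 6.32, 22861 bp away. Batf3 itself had no shared region at an end and 1 in or near its body. Of 4 members near Irf8, the lineage-determining IRF factor, only Gm33199 had an accessible end, with 7.69 and 5.35 at 39644 bp from the gene. Of 3 members near Id2, which codes for an inhibitor of E proteins, 1 was accessible. This was Gm36287, 44371 bp away, which had a weak end at 4.85 and 5.01 but 13 shared regions in its body and flanks. Gm32016, 76753 bp from Cadm1, a cDC1 surface molecule, had 4.77 and 8.34 on 7 reads in replicate 1. These were the fewest at any region's highest-scoring summit. The neighbouring members of Flt3 (0 of 1), Cd8a (0 of 1), Nfil3 (0 of 1) and Naaa (0 of 2) had no shared end region.

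Counts at other myeloid genes were also small, where the dendritic and myeloid identity list as a whole had 28 of 111 (25.2%). Near Cebpb, which codes for a C/EBP factor of inflammation, 3 of 6 members were accessible, while Cebpa had 0 of 5, Fcgr1 0 of 4, Maf 0 of 3, and Klf4 and Lyz2 0 of 2 each. Gm31619 had 9.72 and 10.9 at a region 99289 bp from Cebpb, and its nearest coding gene is Ube2v1. Gm32287 and Gm14321 start head to head at a common region 86967 bp from Cebpb, with 11.4 and 6.04. They lost it in the better-scoring 50% of each list. Gm36301 and Gm38878 flank Pparg, a lipid-activated nuclear receptor, with 10.1 and 10.1 at Gm36301. Gm31845 near Ets2 had 8.35 and 9.22. Gm41699 near Cd14, the lipopolysaccharide co-receptor, had 8.35 and 9.26. Gm26567 near Bcl2a1d, a survival gene of the Bcl2 family, had 10.1 and 12.6, and its region is 123486 bp from that gene because the member itself is long. Gm14009 near Bcl2l11, which codes for the death protein BIM, had 8.73 and 11.5.

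Ptgs2os2, also called lincRNA-Cox2, is a well-studied lncRNA of Toll-like receptor responses in macrophages. Its start region (chr1:150164881-150165230) had folds of 12.1 and 13.1 with 35 and 55 reads, at percentiles 97.9 and 99.0 of the scores in the lists. It lies 56647 bp from Ptgs2, the inducible cyclooxygenase. The region covers all 300 bases of the promoter printed above. The cells were unstimulated, and RNA was not measured here.

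Members with an interferon pathway gene as their nearest immune gene numbered 19, of which 6 had an accessible end. A930006K02Rik, whose printed promoter lies 19874 bp from Ifnar1, which codes for a receptor subunit for type I interferons, had folds of 5.61 and 5.80. Gm12216 spans 73768 bp and begins 80804 bp from Irf1, with 7.27 and 6.59. E130102H24Rik and 0610043K17Rik near Jak1, a receptor kinase, had 4.66 and 3.55, and 5.86 and 6.01. Gm39301 near Tyk2 had 7.94 and 4.39. None of these 6 members, Gm33199 included, had a fold above 10 in both replicates, which 7 of all 74 had. Irf2 and Irf7 had 1 neighbouring member each, and neither of these had a shared end region.

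Members near chemokine and sensor genes ranged widely in fold. Gm20743 lies 60576 bp from Xcl1, a chemokine that attracts CD8-positive dendritic cells through XCR1, and had folds of 11.4 and 13.9. Its nearest coding gene is Dpt. Xcl1 had 1 of 5 neighbouring members accessible, and the sensor list's Tbk1 had 0 of 3. Gm32249 starts 12980 bp from Ccr7, the receptor that guides dendritic cells to lymph nodes, with 7.55 and 7.90. Gm41950 near Cxcr4 had 9.218 and 6.501. Among sensors, 4930509K18Rik near Ddx58 (RIG-I) had 7.76 and 8.78, LOC115487230 near Cgas had 6.85 and 9.28, A230051N06Rik near Ticam1 (TRIF) had 9.33 and 5.42, and Gm12958 near Tlr12 had 8.35 and 10.4.

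Members near presentation, cytokine and lymphocyte genes included Gm15889, 56982 bp from Nlrc5, the transactivator of MHC class I, with folds of 9.17 and 10.1. AA388235 near H2-K1 had 5.02 and 5.68, and Gm30039 near Icosl had 7.27 and 7.23. Gm41603 near Ebi3, a subunit of IL-27, had 9.63 and 10.2. Gm46589 near Tnfsf9 (4-1BB ligand) had 8.56 and 9.94. Gm12159, 108742 bp from the B cell factor gene Ebf1, had 10.2 and 11.1. Gm52717 and Gm42266 near Bach2 share 1 region, with 7.09 and 8.94. Gm39650 near Ctla4 had 10.3 and 8.52. Gm9918 near Itgb7, an integrin of lymphocytes and dendritic cells, had 9.44 and 10.6. Gm4258 near Ptprc (CD45) had 9.25 and 10.5 at a start 164211 bp from that gene. Ebf1 had 1 of 4 neighbouring members accessible and Ctla4 1 of 3, while Cd83 and Nfatc2 had 0 of 4 each.

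Well-known lncRNAs varied. Of 41 members on a list of named lncRNAs, 15 had a shared end region, Ptgs2os2 among them, where 9.8% of all members had one. Jpx, an activator of Xist, had folds of 12.1 and 12.4 at its start, Dancr 11.8 and 13.0, and Oip5os1 (Cyrano) 11.0 and 14.4. Snhg20, Snhg17 and Snhg5, host genes of small nucleolar RNAs, had 9.94 and 7.73, 8.19 and 6.46, and 6.97 and 10.1. Morrbid, which controls Bcl2l11 in short-lived myeloid cells, had 6.76 and 7.57. Norad, Dubr, Lncpint, Mirt1 and Pvt1 had folds of 4.91 to 8.16. The abundant nuclear RNAs Malat1 and Neat1 were lowest, at 3.50 and 3.62 for Malat1 and 3.06 and 3.09 for Neat1, while their summits held 28 and 37 and 30 and 35 reads, more than the median of 17 and 25. Malat1, whose region lies 815 bp from its 3′ end, lost it with windows of 500 bp, and Dubr and Neat1 lost theirs where peaks had to overlap by 50% of each.

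The other 26 named lncRNAs had no shared end region. They include Xist, whose nearest shared region was 1361 bp from an end, H19, Hotair, Mir17hg at 2111 bp and Ifngas1 at 29369 bp. AW112010, a lncRNA of inflamed immune cells, had 2 peaks in replicate 1, the best at 6.8, and none in replicate 2. Carmn had 1 peak in replicate 2 only. Firre had no region at either end but 10 in its body.

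Ends are only part of these genes. In the gene or within 1 kb of it, 1203 members (18.4%) had a shared region and 191 had 3 or more. A930011G23Rik (431817 bp long) had the most, 18, and none at an end. Gm31718 had 14, Gm36287 13, Pvt1, the neighbour of Myc, 12, and Firre 10. Per 10 kb this was 1.4 in Gm36287, 1.35 in Firre and 1.32 in Gm31718, against 0.535 in Pvt1 and 0.415 in A930011G23Rik.

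Accessible lncRNA promoters were poor in CpG beside those of coding genes. RefSeq gave 6019 promoters of members, and a shared region overlapped 234 of them (3.89%), belonging to 215 genes, against 41.7% of coding promoters. The ratio of observed to expected CpG had a median of 0.378 in the 234, 0.203 in the members' other promoters and 0.812 in accessible coding promoters. It exceeded 0.6 in 26.1% of the accessible lncRNA promoters and in 81.8% of the accessible coding ones. At like CpG ratio the members were still less often overlapped: 19.9% against 71.5% above 0.6, and 1.89% against 4.71% up to 0.2. These shares were not tested.

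Motif letters differed between these classes. The PU.1-like core stood in 28 of the 234 accessible lncRNA promoters (12%), in 3.27% of the members' other promoters, in 3.66% of accessible coding promoters and in 3.2% of all 32851 promoters. All 28 were in promoters with a CpG ratio of at most 0.6, where the share was 16.2% of 173, against 7.99% of accessible coding promoters of that kind. The ETS-IRF composite stood in 15.8%, 9.58%, 7.12% and 8.24% of the same 4 classes, and the ISRE in 13.2%, 10.4%, 7.01% and 8.56%. AP-1 followed with 14.5%, 10.4%, 4.19% and 7.81%, and the E-box with 12%, 5.17%, 10.9% and 7.15%. Among promoters with a CpG ratio of at most 0.6, accessible members and accessible coding genes stood closer for some of these: 13.9% and 11.6% for the ISRE, 17.9% and 10.8% for the ETS-IRF composite, and 16.8% and 8.48% for AP-1. Counted per gene, the ISRE stood in 12.6% of accessible members and 11.6% of the others. The ETS-IRF composite stood in 14% and 10.8%, and AP-1 in 14.9% and 11.9%. For the PU.1-like core the shares per gene were 12.1% and 3.67%, and for the E-box 13% and 5.79%. Runx letters did not separate the members, at 21.4% and 21.3%, and TATA-like letters stood in 14.5% of accessible and 18.2% of other members' promoters. A match is a run of letters and was not shown to bind a factor. Promoters of the same gene overlap, so they are not independent.

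**Figure D5:**
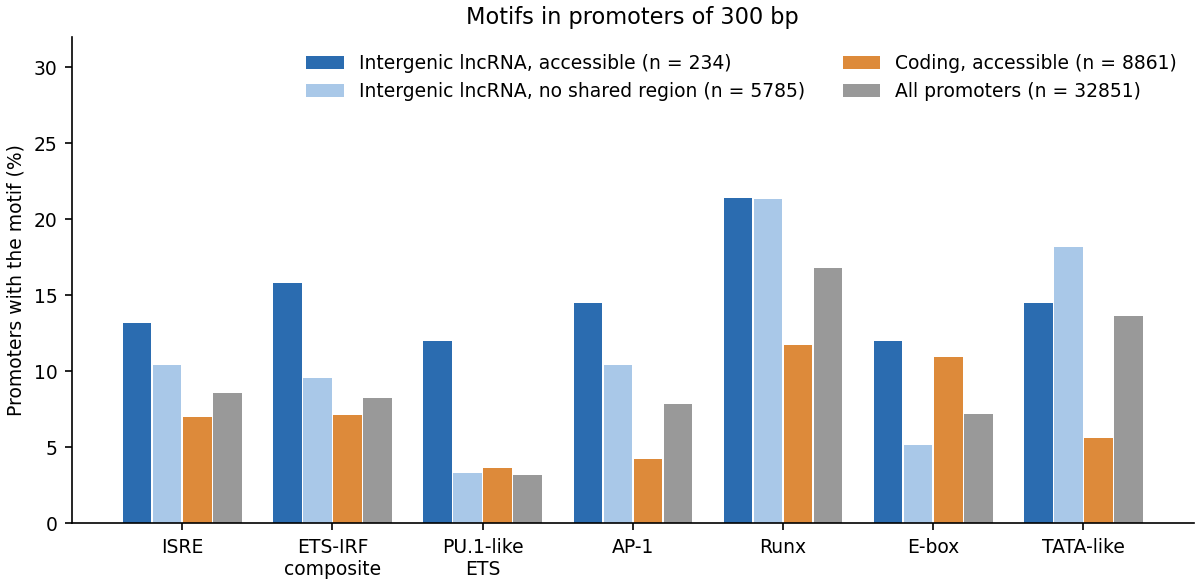
Bars give the share (%) of 300 bp promoters that hold each motif, for members with and without a shared region over the promoter, accessible coding promoters and all promoters. The PU.1-like bar stands at 12% in the accessible members, against 3.27%, 3.66% and 3.2% in the other classes.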

How the data were processed

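ATAC-seq of 2 samples of unstimulated CD8-positive dendritic cells was used, each with its own peak list. The submitters' processing notes name mm10, MACS2, HOMER 4.9.1, Picard 2.8.1, BWA 0.7.17 and Trimmomatic, with no role. Read shifting, duplicate removal, blacklists and the threshold are not given in the sources used here, and each bears on the weak peaks. The deposited fold enrichment is the authors' ratio of summit reads over local background. The deposited −log10 p and −log10 q are the caller's values for that excess, and the deposited score is 10 times the −log10 q, as a whole number. The deposited summit position (in bp) was used only as part of its peak, and 13 entries of replicate 1 had none. Summit reads were recovered from the fold and p at each region's highest-scoring summit. They gave back the deposited −log10 p to within 0.002 at 100% of these summits.

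Entries of the same peak were joined. A member counted as accessible when a shared region touched the 1 kb on either side of an end. Its printed fold is that of the end region with the highest lower fold of the replicates. Genes and promoters came from RefSeq GRCm38.p6, and members were matched to promoters by gene ID. Members, gene lists and motifs were chosen with earlier results of these data known, so shares carry exact 95% intervals and no p. The named genes are the members near an immune gene within 100 kb (the 20 highest in lower fold described, others listed or counted), the 10 highest of all members, members on a list of known lncRNAs, and the 5 with most regions in the gene. Alternatives changed the window, overlap, threshold, distance rules, annotation and replicates. Overlap counting was tested on simulated data. Python 3.11.15, numpy 2.4.6, pandas 2.3.3, scipy 1.17.1 and matplotlib 3.10.9 were used. The ChIP-seq samples were not analysed here, and a few loci, 1 of the 10 highest members among them, are not reported here.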

Additional observations from a re-analysis of the deposited data

How the results depend on the processing

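The share of members with an accessible end, 9.8%, was 6.89% with windows of 500 bp, 13.9% with 2 kb, 8.87% where peaks had to overlap by 50% of each, 5.38% in the better-scoring 50% of each list, 8.99% at a −log10 q of at least 5 and 12.6% when a peak in either list sufficed. It was 8.85% and 8.05% for members more than 10 and 20 kb from coding genes, and 12.6% for curated genes only. Leaving out a replicate gave 10.6 to 11.6%. Coding genes stood at 43.9%, 51.7%, 34.4% and 50.6% with 500 bp, 2 kb, the better 50% and either list. The 7.22% of starts became 5.44%, 10%, 6.47%, 4% and 9.02% with 500 bp, 2 kb, the 50% overlap, the better 50% and either list, and 7.72 to 8.47% without a replicate. The 74 members near immune genes became 36 in the better 50%, 45 within 50 kb and 112 within 200 kb, and 77 to 82 without a replicate. Members near immune genes kept a higher share than those near other coding genes in all 8 settings of peaks and windows tried, between 11.5% against 6.47% (better 50%) and 33% against 16.6% (2 kb). These settings reuse the same peak lists and the same gene lists, so they are not separate evidence. The median folds of 7.29 and 7.6 were 8.88 and 9.52 in the better 50% and 7.58 and 7.9 at a −log10 q of at least 5. Of the 96 named members with a region, 44 lost it in the better 50%, 20 with 500 bp, and 12 each with the 50% overlap and a −log10 q of at least 5. In the better 50% the losses include A930006K02Rik, Gm12216, Gm33199, Mirt1, Morrbid, Malat1, Neat1 and Pvt1. The settings themselves take away peaks or window length. No paired analysis was possible because the samples with files form a single group and the shares come from no test. Depth limits the weak end: 54 of the 771 regions held 9 reads or fewer in replicate 1.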

Other observations

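Members on chromosome Y numbered 30, and 2 had a shared end region, with median folds of 3.79 and 3.48, against 7.29 and 7.6 over all members' end regions. Regions in intergenic tiles away from every lncRNA end had median folds of 7.51 and 8.04, on 15 and 23 reads at the summit, beside 17 and 25 reads at the members' ends.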
